A study of Mus musculus with 20 samples.

Results

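The genes described here are 35 chromatin remodellers and long chromatin regulators, out of 38414 gene symbols in the series. They were chosen by name as a list: the 9 Chd genes, Arid1a, Arid1b and Arid2, Kmt2a to Kmt2e, Smarca1, Smarca2, Smarca4, Smarca5, Smarcc1, Smarcc2, Crebbp, Ep300, Ep400, Bptf, Atrx, Setd2, Setd5, Nsd1, Ash1l, Adnp, Ino80 and Srcap. Earlier results of these data were known when the list was chosen. Each gene was looked up by its symbol in the transcript level tables and in the tables of edited sites. The series asked which RNAs lie near G3BP1, the RNA-binding core protein of stress granules, in sections of mouse embryo and embryonic brain. MAPIT-seq answers this by bringing a fusion of 2 RNA editors, rAPOBEC1 and hADAR2, joined to the antibody-binding module pAG, to an antibody on the fixed section. The deaminase rAPOBEC1 leaves C-to-T changes in sequenced RNA, hADAR2 leaves A-to-G changes, and RNA close to the antibody's target is expected to carry more of both.

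All animals were wild-type C57BL/6J mice, and the 20 libraries fall into 10 groups of 2. E10.5 fixed embryo and E10.5 fresh-frozen embryo each have a G3BP1, an IgG and an untreated group. E12.5 brain and E16.5 brain each have a G3BP1 and an IgG group. Antibody libraries received 0.2% FA, a rabbit antibody (anti-G3BP1, or IgG as the control for editing that does not depend on the target), a secondary antibody (guinea pig anti-rabbit) and the editor fusion. Untreated libraries had neither fixation nor antibody according to their sample fields, although the titles of 1 pair call the embryo fixed, so a difference between IgG and untreated cannot be told apart from fixation. All libraries were made from poly(A) RNA. Nothing in the labels ties the 2 libraries of a group to separate animals. The p-values therefore measure only how these samples spread, and that spread may be technical.

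Whole-embryo markers are nearly absent from the E10.5 libraries with the fresh-frozen label. Their summed cardiac muscle markers were 3.31 to 14.3 TPM, against 3168 to 5038 TPM in the fixed embryo, and their summed trunk markers were 0 to 1.88 TPM, against 592 to 855 TPM. Their summed neuron markers were 2628 to 3881 TPM, against 2402 to 2880 TPM in E12.5 brain and 3906 to 3992 TPM in E16.5 brain. Tubb3 made up most of these sums. Gria2, Syt1, Rbfox3 and Snap25 had means of 341, 265, 129 and 118 TPM in them. In E12.5 brain these means were 18.4, 23.9, 35.9 and 28.2 TPM, and in E16.5 brain 87.2, 123, 74.2 and 100 TPM. Only Snap25 overlapped with E16.5 brain. These data thus go against the label, and they are called the libraries labelled fresh-frozen throughout. Both brain tables hold neuron and progenitor markers, with trunk markers at 4.58 TPM or less. The deposited site tables hold 395, 1417, 1145 and 2132 sites of the 35 genes with 10 or more reads in every library (fixed embryo, labelled fresh-frozen, E12.5 and E16.5 brain). Mean coverage at these sites was 33.7 to 227 reads per library in the fixed embryo, 59.7 to 108 in the libraries labelled fresh-frozen, 24.5 to 75.6 at E12.5 and 146 to 246 at E16.5. The shallowest brain library was E12.5 IgG replicate 1.

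Chromatin remodellers use ATP to slide, evict or exchange nucleosomes, and their partners write or read the histone marks that recruit them. In the developing brain the BAF complex is known for exchanging subunits as progenitors become neurons, and the Chd3, Chd4 and Chd5 ATPases take alternative places in the NuRD complex. Loss of 1 copy of many of these genes is known to disturb human brain development. Their transcripts are long: the median longest coding transcript of the 35 genes was 8509 nt (range 4562 to 19823), against 2886 nt over 19781 protein-coding genes of the GENCODE M21 annotation. G3BP1 is known to condense with long RNAs.

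The sites with the largest rise in G3BP1 libraries show what the editing readout looks like on these transcripts. In each table, up to 3 sites from different genes are printed. They have 20 or more reads in every library, 2 or more edited reads in both G3BP1 libraries, groups that do not overlap and the largest difference in mean edited share. They were picked for that difference, so their values are a description with no test. Each is shown as 21 bases of the transcript strand, 5′ to 3′, from GRCm38, with the edited base in capitals. Except for the Srcap site, which is coding, each lies in a 3′UTR and is an A-to-G edit.
Srcap chr7:127560765 (+), fixed embryo, C-to-T: aaggccaagaCgtgaatgggc
Arid1a chr4:133679150 (-), labelled fresh-frozen: gcatatttgtAtttcaacaat
Ash1l chr3:89077917 (+), labelled fresh-frozen: ctgaaacactActcttatttt
Kmt2c chr5:25272834 (-), labelled fresh-frozen and E16.5 brain: atgttacaatAtaattttgtg
Chd7 chr4:8866941 (+), E12.5 brain: tgtctttttaAggaaacttac
Arid1a chr4:133679799 (-), E12.5 brain: cctgtgcagtAgagtgtagat
Arid2 chr15:96402691 (+), E16.5 brain: ataaaaatttAccagtctgaa
Adnp chr2:168181697 (-), E16.5 brain: gtcctgggaaAgccttatcct

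The Kmt2c adenosine met the conditions in 2 tables. In the libraries labelled fresh-frozen it was edited in 0 of 68 and 1 of 38 IgG reads, in 5 of 36 and 7 of 76 G3BP1 reads (13.9% and 9.21%), and in 0 of 51 and 0 of 46 untreated reads. In E16.5 brain it was edited in 0 of 77 and 0 of 39 IgG reads and in 3 of 43 and 3 of 59 G3BP1 reads (6.98% and 5.08%). Kmt2c encodes a methyltransferase that marks enhancers. Among the printed sites the highest share belonged to Chd7 in E12.5 brain, where 51 of 141 reads (36.2%, Wilson 95% interval 28.7 to 44.4) were edited in G3BP1 replicate 1 and 11 of 128 (8.59%, 4.87 to 14.7) in replicate 2. The IgG libraries had 0 of 42 and 2 of 108 edited reads there. Intervals cover counting error only, since the reads carry no molecular identifiers that would show them to be independent molecules.

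The Arid1a site of the libraries labelled fresh-frozen was edited in 3.20% and 1.60% of IgG reads, in 17.9% and 10.9% of G3BP1 reads, and in 0 of 114 and 0 of 109 untreated reads. The Ash1l site had 0 of 24 and 0 of 28 edited IgG reads and 2 of 32 and 7 of 42 edited G3BP1 reads. In E16.5 brain the Arid2 site had 0 of 73 and 0 of 44 edited IgG reads against 5 of 41 and 4 of 62 in G3BP1. The Adnp site had 2.94% and 1.42% edited IgG reads against 8.43% and 8.51% in G3BP1. Differences were much smaller at the other sites. The Srcap site had 2 of 201 and 2 of 190 edited reads in the fixed embryo G3BP1 libraries (0.995% and 1.05%). With IgG it had 1 of 446 and 0 of 253, and in untreated libraries 0 of 274 and 0 of 53. The E12.5 Arid1a site had 2 of 87 and 3 of 126 edited G3BP1 reads, against 0 of 40 and 2 of 92 with IgG. Sites meeting the conditions numbered 1 in the fixed embryo, 58 in 25 genes in the libraries labelled fresh-frozen, 3 in 2 genes at E12.5 and 69 in 22 genes at E16.5.

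Over all sites of the 35 genes together, G3BP1 libraries carried a higher share of edited reads than IgG libraries in each table. In E16.5 brain the pooled edited share was 0.183% and 0.179% in the IgG libraries and 0.348% and 0.301% in the G3BP1 libraries, means of 0.181% ± 0.003 and 0.325% ± 0.033 (SD, n = 2) and a ratio of 1.79. In the libraries labelled fresh-frozen it was 0.627% and 0.623% with IgG, 0.976% and 1.07% with G3BP1, and 0.348% and 0.343% untreated, a G3BP1 to IgG ratio of 1.63. In E12.5 brain it was 0.146% and 0.195% with IgG and 0.547% and 0.324% with G3BP1, a ratio of 2.55. The G3BP1 and IgG groups did not overlap in any of these tables, and untreated libraries were lowest where they exist. In E12.5 brain, Chd7 supplied 186 of the 410 edited reads of G3BP1 replicate 1.

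The fixed embryo showed the smallest ratio. Its pooled share was 0.272% and 0.308% with IgG, 0.403% and 0.356% with G3BP1, and 0.274% and 0.361% untreated, a G3BP1 to IgG ratio of 1.31. Here 1 untreated library lay above the lower G3BP1 library, so the editor-treated and untreated libraries were not separated. The sites of all other genes gave ratios of 1.27 in the fixed embryo, 1.91 in the libraries labelled fresh-frozen, 1.95 at E12.5 and 1.62 at E16.5, and the difference between the 35 genes and the rest was not tested.

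**Figure D1:**
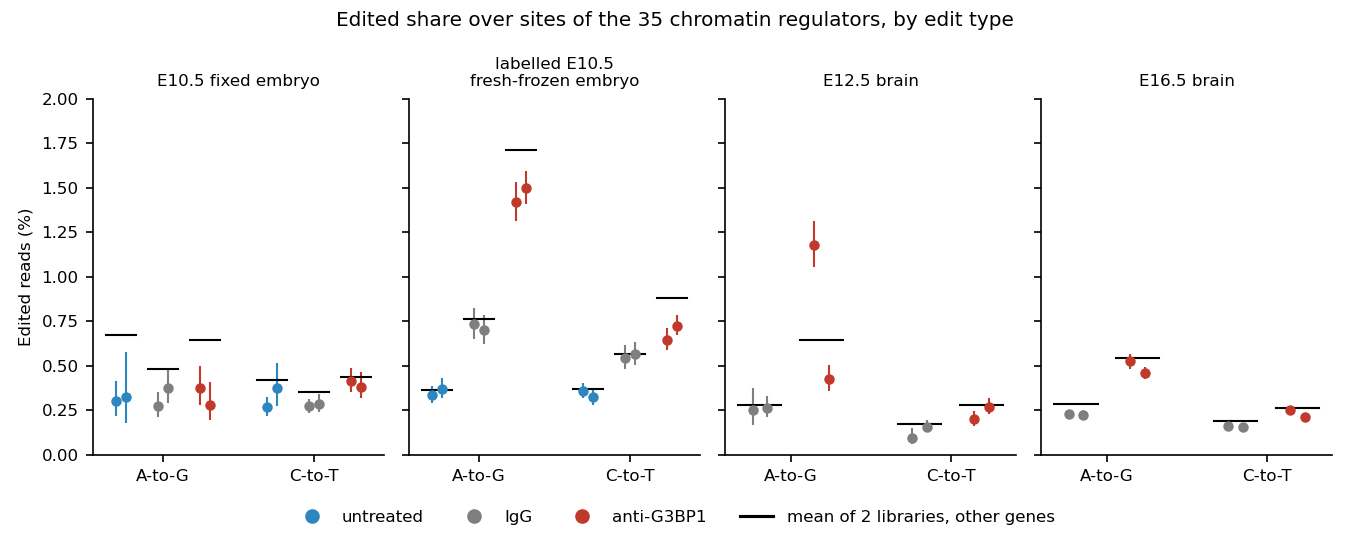
Edited reads as a percentage of all reads at the kept sites of the 35 genes, per library, for A-to-G and C-to-T sites in the 4 tables. Points are libraries with Wilson 95% intervals, and black lines are means of 2 libraries over the sites of all other genes. In E16.5 brain the A-to-G share went from 0.227% and 0.223% with IgG to 0.524% and 0.458% with G3BP1.

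The ratio was larger at A-to-G than at C-to-T sites in 3 of the 4 tables. At E16.5 the A-to-G share was 0.227% and 0.223% with IgG and 0.524% and 0.458% with G3BP1, a ratio of 2.18, while the C-to-T share was 0.159% and 0.154% against 0.2503% and 0.2141%, a ratio of 1.48. With the fresh-frozen label the ratios were 2.04 for A-to-G and 1.24 for C-to-T, and in E12.5 brain they were 3.11 and 1.87. In the fixed embryo the order was the opposite, 1.01 for A-to-G and 1.43 for C-to-T. Of the 410 edited reads of E12.5 G3BP1 replicate 1, Chd7 alone supplied 175 at A-to-G sites and 11 at C-to-T sites. Its part in the E12.5 ratios was not tested. The difference between edit types was not tested.

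Edited shares also differed by the base before the edited one. ADAR enzymes are known to prefer adenosines after U or A, and APOBEC1 to prefer cytidines in AU-rich surroundings. At E16.5 the mean A-to-G share after a T went from 0.254% with IgG to 0.735% with G3BP1, and after an A from 0.225% to 0.550%. After a C it went from 0.138% to 0.316%, and after a G from 0.282% to 0.366%. The mean C-to-T share after an A was 0.175% with IgG and 0.374% with G3BP1, whereas after a C it was 0.141% and 0.102%, and after a G 0.142% and 0.139%. With the fresh-frozen label the A-to-G share after a T went from 1.02% to 2.42%, and the C-to-T share after an A from 0.395% to 0.913%. There the C-to-T share after a C went the other way, from 0.831% to 0.408%. In E12.5 brain the A-to-G share after a T went from 0.483% to 1.23%, and the C-to-T share after an A from 0.124% to 0.301%. In these 3 tables the highest A-to-G share with G3BP1 was after a T and the highest C-to-T share after an A. At E12.5, however, the A-to-G share after an A was almost the same, 1.22% ± 0.82 against 1.23% ± 1.01 after a T (SD). The printed Chd7 adenosine, edited in 51 of 141 reads of E12.5 G3BP1 replicate 1, is among the sites after an A. The fixed embryo differed: its A-to-G share was highest after a C (0.403%) and went from 0.323% to 0.273% after a T, and its C-to-T share was highest after a T (0.489%). These shares are descriptions over sites, with no test.

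Most sites lay in 3′UTRs: 72.4% of the sites of the 35 genes in the fixed embryo, 73.0% at E12.5 and 69.5% at E16.5. The libraries labelled fresh-frozen were different, with 39.0% of the sites in 3′UTRs and 59.6% in coding sequence, while the sites of other genes there were 72.5% and 21.8%. In those libraries the edited share in 3′UTRs went from 0.581% with IgG to 1.25% with G3BP1 (ratio 2.15) and in coding sequence from 0.664% to 0.857% (ratio 1.29). At E16.5 the ratios were 1.85 in 3′UTRs and 1.59 in coding sequence.

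Next, each gene was tested by its edited reads summed over sites, with a quasi-binomial model fitted on all genes of a table. The measure is the log2 odds ratio of edited to unedited reads, G3BP1 over IgG, given with its standard error, and adjusted p is by Benjamini-Hochberg over all genes tested. A gene was called at an adjusted p under 0.05. In E16.5 brain 11 of the 35 genes rose with G3BP1, where the background was 9.04% of 11741 genes, and no gene fell. They were Adnp, Atrx, Chd2, Kmt2c, Chd5, Arid1a, Smarca2, Smarcc2, Kmt2e, Nsd1 and Kmt2a. Sites of the list were covered more deeply, by 146 to 246 reads a library on average against 109 to 190 over all kept sites. The background is not matched for reads per gene, and the part of coverage in these counts was not tested. The estimate was positive in 34 of the 35 genes, the exception being Ep400 (-0.15), and the median was 0.83 against 0.65 over all genes (0.67 where genes with a group at 0 edited reads were set to a floor of 3 edited reads, or left out where neither group passed it).

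Adnp had the smallest p of the list. It encodes a homeodomain zinc finger protein that works with Chd4 in the ChAHP complex. Its edited share was 0.168% and 0.160% in IgG libraries (49 of 29090 and 34 of 21213 reads) and 0.456% and 0.462% in G3BP1 libraries (80 of 17534 and 129 of 27950). The G3BP1 libraries lay together, far above the IgG libraries. The log2 odds ratio was 1.48 ± 0.26 (adjusted p = 1.98e-06, quasi-binomial F test). Adnp rose with both edit types: the A-to-G share was 0.208% and 0.102% with IgG and 0.557% and 0.584% with G3BP1, and the C-to-T share was 0.153% and 0.182% with IgG and 0.416% and 0.412% with G3BP1. All its sites are also listed under the predicted gene Gm20716, so the reads of those genes cannot be told apart.

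Among the remodelling ATPases, Chd2, Chd5, Smarca2 and Atrx rose in E16.5 brain. Chd2, of the Chd1 and Chd2 branch that opens chromatin at active genes, had 0.134% and 0.146% edited reads with IgG and 0.742% and 0.356% with G3BP1, a log2 odds ratio of 1.83 ± 0.50 (adjusted p = 0.00348, quasi-binomial F test). Both G3BP1 libraries were above both IgG libraries, and replicate 1 was the higher, with an A-to-G share of 1.39% against 0.307% in replicate 2. Chd5, the NuRD ATPase of neurons, had 0.132% and 0.111% with IgG and 0.210% and 0.283% with G3BP1 (1.05 ± 0.29, adjusted p = 0.00597). Its close relatives were not called: Chd3 gave 0.31 and Chd4 gave 0.50.

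Smarca2 encodes BRM, 1 of the 2 alternative ATPases of the BAF complex. Its edited share was 0.268% and 0.280% with IgG and 0.589% and 0.434% with G3BP1, a log2 odds ratio of 0.87 ± 0.24 (adjusted p = 0.00779). Its edit types differed: the A-to-G share went from 0.425% and 0.353% to 1.02% and 0.853%, with no overlap, while the C-to-T shares were 0.149% and 0.223% with IgG and 0.247% and 0.103% with G3BP1, which overlap. On C-to-T sites alone its estimate was -0.14. The other ATPase, Smarca4 (BRG1), had 0.118% and 0.0969% with IgG and 0.236% and 0.163% with G3BP1, also without overlap, but its 0.80 ± 0.33 did not pass (adjusted p = 0.1002). Atrx, which helps place a histone variant at repeats, had 0.144% and 0.0706% with IgG and 0.241% and 0.326% with G3BP1 (1.35 ± 0.35, adjusted p = 0.00325). Smarca1, the ISWI ATPase of the NURF complex, had the largest estimate of the list, 2.14 ± 0.88. It rests on 6 and 1 edited reads with IgG and 10 and 19 with G3BP1 and did not pass (adjusted p = 0.0627).

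Of the non-catalytic BAF subunits, Arid1a and Smarcc2 rose. Arid1a, the DNA-binding subunit of canonical BAF, had 0.230% and 0.245% edited reads with IgG and 0.476% and 0.422% with G3BP1 (0.91 ± 0.25, adjusted p = 0.00654). The scaffold subunit Smarcc2 had 0.123% and 0.171% with IgG and 0.287% and 0.224% with G3BP1 (0.79 ± 0.24, adjusted p = 0.0158). In both genes the groups did not overlap. Their relatives Arid1b (0.62), Arid2 (0.27) and Smarcc1 (0.83) had positive estimates that did not pass.

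Among the histone methyltransferases, Kmt2c had 0.297% and 0.176% edited reads with IgG and 0.444% and 0.776% with G3BP1 (1.37 ± 0.37, adjusted p = 0.00481). Its A-to-G share moved from 0.137% and 0.0606% to 1.03% and 0.933%, and the adenosine printed above is 1 of its sites. Kmt2e, a chromatin reader of the same family, Kmt2a, which maintains expression of Hox genes, and Nsd1, a histone H3 lysine methyltransferase, also passed, with estimates of 0.96, 0.98 and 1.19 and adjusted p between 0.0381 and 0.0401. Kmt2b (0.61), Kmt2d (0.15), Setd2 (0.98), Setd5 (0.59) and Ash1l (0.28) did not pass. Neither did the acetyltransferases Crebbp (0.89) and Ep300 (0.67), nor Bptf (0.56), Ino80 (0.93) and Srcap (0.90). Srcap shares nearly all of its sites, 76 of 77, with the predicted gene Gm42715.

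**Figure D2:**
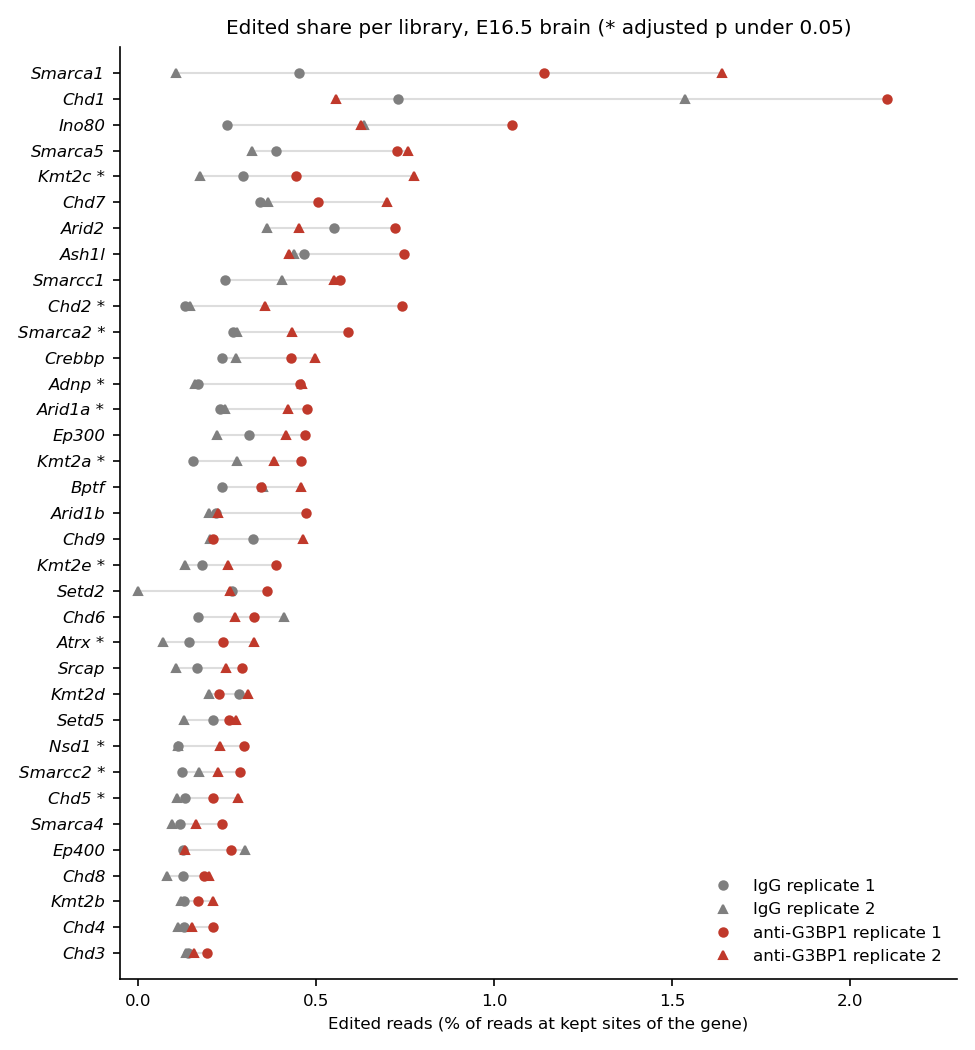
Edited reads as a percentage of reads at the kept sites of each of the 35 genes in E16.5 brain, with points for the 2 IgG and the 2 G3BP1 libraries and an asterisk at genes called. Adnp lies near 0.16% with IgG and 0.46% with G3BP1, and in 25 of the 35 genes both G3BP1 libraries lie above both IgG libraries.

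Both G3BP1 libraries lay above both IgG libraries in 25 of the 35 genes in E16.5 brain, where 42.1% of all tested genes did so, and in none did both lie below (5.4% of all genes did). All tested genes include 1147 with a group at 0 edited reads, and the list has 0 such genes. The 11 calls depend on having 2 libraries a group: without IgG replicate 1 there were 3 (Adnp, Atrx and Kmt2c, with 234 of all 11741 genes), without IgG replicate 2 there were 4 (Adnp, Chd2, Smarcc2 and Kmt2a, with 507), and without either G3BP1 library there were 0, as there were 0 among all genes. On A-to-G sites alone 10 of the 35 genes rose (9.51% of all genes), and on C-to-T sites alone only Adnp did (0.649%). A limma test on the empirical logit called 0 of the 35 and 0 of all genes, and edgeR's quasi-likelihood test called 9 of the 35 and 924 of all genes. Tested against the median change of all genes, 0 of the 35 and 11 of all genes were higher.

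In the libraries labelled fresh-frozen, 3 of the 35 genes rose with G3BP1, Bptf, Ep400 and Crebbp, against a background of 5.65% of 7836 genes. None of these 3 was called in E16.5 brain. Estimates were positive in 30 of the 35 genes, with a median of 0.74 against 0.91 over all genes (0.80 with the floor). Bptf, the largest subunit of the NURF remodeller, had 0.335% and 0.673% edited reads with IgG (14 of 4178 and 32 of 4758), 1.82% and 1.26% with G3BP1 (94 of 5155 and 107 of 8514), and 0.227% and 0.379% untreated. The G3BP1 libraries were the 2 highest, and IgG and untreated libraries overlapped. Its log2 odds ratio was 1.52 ± 0.37 (adjusted p = 0.0118, quasi-binomial F test).

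Ep400, the ATPase of the TIP60 complex, had 0.270% and 0.163% with IgG, 1.19% and 1.42% with G3BP1, and 0.125% and 0.452% untreated, a log2 odds ratio of 2.57 ± 0.72 (adjusted p = 0.0122). The IgG value rests on 5 and 3 edited reads. In E16.5 brain the same gene had 0.127% and 0.301% with IgG and 0.261% and 0.131% with G3BP1, which overlap. Crebbp, a histone acetyltransferase and coactivator, had 0.497% and 0.225% with IgG, 1.20% and 1.68% with G3BP1, and 0.371% and 0.322% untreated, a log2 odds ratio of 2.02 ± 0.55 (adjusted p = 0.0158). In each of the 3 genes the G3BP1 libraries stood above the other 4.

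Both G3BP1 libraries exceeded both IgG libraries in 20 of the 35 genes here, where 47.1% of all genes did so, and fell below them in 0, where 4.48% did. All tested genes include 874 with a group at 0 edited reads, and the list has 0 such genes. On A-to-G sites alone 4 of the 35 were called (6.41% of all genes), and on C-to-T sites alone 0 of the 35 and 0 of all genes. Next in order of p came Kmt2c (1.14, adjusted p = 0.0912) and Ash1l (0.79, adjusted p = 0.118). The 5 negative estimates belonged to Smarcc2, Ino80, Smarca4, Srcap and Smarca5. Smarcc2, called in E16.5 brain, had 1.04% and 1.43% edited reads with IgG, 0.781% and 1.08% with G3BP1, and 0.389% and 0.256% untreated. The IgG and G3BP1 libraries overlapped, and both lay above the untreated ones. Without IgG replicate 1 the calls were Crebbp and Ep400 (155 of all 7836 genes), without IgG replicate 2 only Bptf (224), and without either G3BP1 library none, among all genes as well. A limma test called 0 of the 35 and 0 of all genes, and edgeR called 3 and 306. Tested against the median change, 0 of the 35 and 1 of all genes were higher.

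In E12.5 brain only Chd7 rose of the 29 testable genes, against a background of 0.269% of 5568 genes, and 0 fell (0.018% of all genes). Chd7, the remodeller whose loss causes CHARGE syndrome, had 0.0669% and 0.582% edited reads with IgG (1 of 1495 and 29 of 4979) and 3.27% and 0.739% with G3BP1 (186 of 5685 and 39 of 5278). The groups did not overlap, but G3BP1 replicate 2 was close to IgG replicate 2, and the group means were 2.01% ± 1.79 and 0.325% ± 0.365 (SD, n = 2). The log2 odds ratio was 2.15 ± 0.51 (adjusted p = 0.00091, quasi-binomial F test). Without G3BP1 replicate 1 it was 0.66 (adjusted p = 0.607), without either IgG library it was also not called (0 of all genes were), tested against the median change it was not called, and without its most edited site the adjusted p was 0.101. Without sites of any gene edited in 50% of reads or more, the adjusted p was 0.295. No kept Chd7 site was among those left out. Its own reads were thus unchanged, and only the fit over all genes differed.

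The other testable genes in E12.5 brain rested on few edited reads, often 0 to 5 a library. Estimates were positive in 22 of the 29, the median was 0.90 against 0.61 over all genes (0.91 and 0.67 with the floor), and both G3BP1 libraries lay above both IgG libraries in 11, where 27.6% of all genes did so, and below them in 0, where 3.41% did. All tested genes include 2139 with a group at 0 edited reads, and the list has 3 such genes. On A-to-G sites alone 1 of the list was called (0.189% of all genes). Adnp had 0 of 1324 and 9 of 4646 edited reads with IgG and 24 of 3124 and 17 of 3233 with G3BP1 (0.768% and 0.526%), without overlap, and its 2.04 ± 0.82 did not pass (adjusted p = 0.261). Nsd1 had 0.590% and 0.0939% with IgG and 0.130% and 1.28% with G3BP1, and 29 of its 33 edited reads in G3BP1 replicate 2 came from 1 position. Ash1l, Chd1, Chd5, Crebbp, Ino80 and Smarca1 lacked the reads for a test.

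None of the 29 testable genes was called in the fixed embryo, where 1 of 5594 genes was (0.0179%). On A-to-G sites alone 0 of the list were called (0.112% of all genes). At an unadjusted p under 0.05 there were 2 of the 29, Kmt2b and Bptf, and 368 of all genes, and neither limma nor edgeR called any of the 29. Kmt2b, a methyltransferase of histone H3 lysine, had 2 of 3436 and 6 of 2480 edited reads with IgG, 20 of 1966 and 4 of 1459 with G3BP1, and 0.403% and 0.596% in untreated libraries. Its second G3BP1 library lay below both untreated libraries. The estimate was 2.32 ± 0.82 (adjusted p = 0.684, quasi-binomial F test). Bptf had 0.154% and 0.377% with IgG and 1.07% and 2.15% with G3BP1, from 5 edited reads in each G3BP1 library (2.35 ± 1.31, adjusted p = 0.748). Both G3BP1 libraries lay above both IgG libraries in 7 of the 29 genes (21.6% of all genes) and below them in 5 (12.2% of all genes). All tested genes include 549 with a group at 0 edited reads, and the list has 1 such gene.

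**Figure D3:**
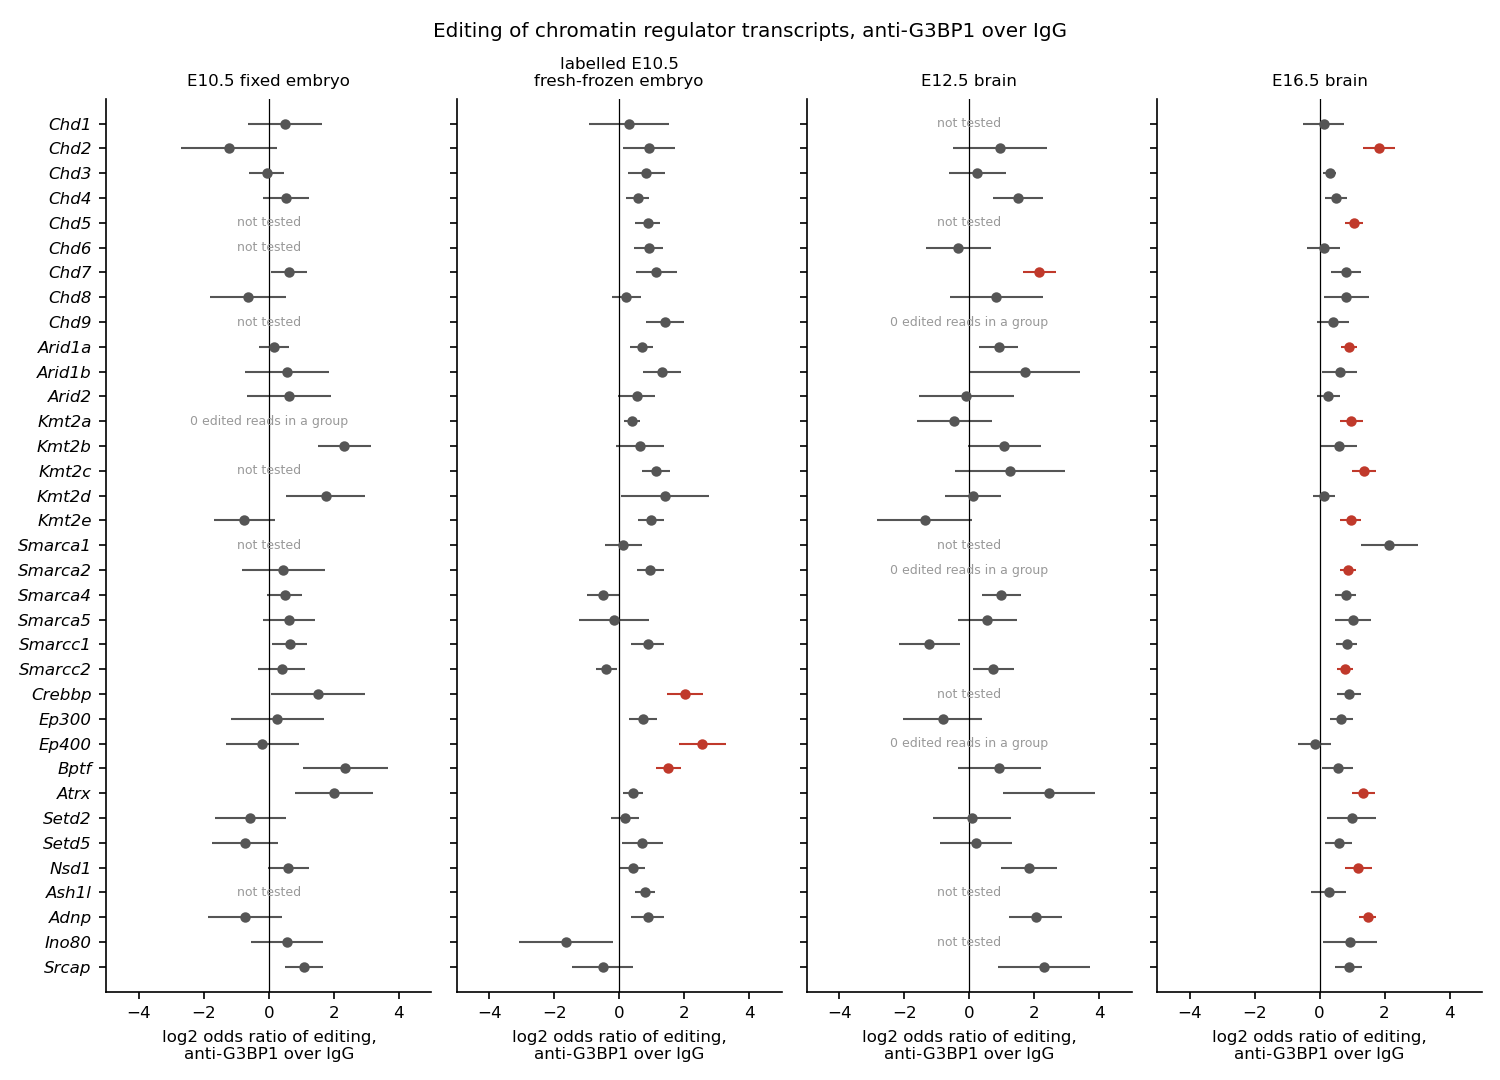
Log2 odds ratio of edited reads, G3BP1 over IgG, with its standard error, for each testable gene of the list in the 4 tables, with called genes in red and no estimate for genes without enough reads or with 0 edited reads in a group. Called genes number 0 in the fixed embryo, 3 in the libraries labelled fresh-frozen, 1 at E12.5 and 11 at E16.5.

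Different genes were called in the 3 tables with calls, but a difference between tables needs its own test. Between the brain stages this was made on sites present in both tables, as the interaction of antibody and stage. None of the 27 testable genes of the list was called and none of all 2804 genes was (0.0%), with 1 of the 27 and 144 of all genes at an unadjusted p under 0.05. The 1 was Kmt2e, with 3.39 ± 1.69 (adjusted p = 0.918, quasi-binomial F test). For Chd7 the difference was -2.20 ± 1.22 (adjusted p = 0.921), from a log2 odds ratio of 2.67 at E12.5 and 0.47 at E16.5 over the shared sites.

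The IgG and untreated libraries give the editing background of these transcripts. In the libraries labelled fresh-frozen none of the 35 genes was called for IgG over untreated, where 0.128% of 7836 genes were. However, 31 of the 35 estimates were positive, with a median of 0.82 against 0.72 over all genes, and 10 had an unadjusted p under 0.05, as had 950 of all genes. Arid1a, at 1.14% and 0.687% with IgG and 0.228% and 0.237% untreated, gave 1.95 (adjusted p = 0.103, quasi-binomial F test), and Smarcc2 gave 1.89 (adjusted p = 0.103). The limma test called 0 of the 35 and 0 of all genes, and edgeR called 2 higher of the 35 and 91 of all genes. For the fixed embryo none of the 29 was called by the quasi-binomial test, limma or edgeR, 1 had an unadjusted p under 0.05 (258 of all 5594 genes), and the median was -0.12, as over all genes. Editor, antibody and fixation differ together between these groups and cannot be told apart.

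Sites edited in both G3BP1 libraries and in no IgG or untreated library made up 3.56% of the sites of the 35 genes in E16.5 brain (76 of 2132), where the background was 3.0% of all sites. The reverse pattern, edited in both IgG libraries only, held for 2.11%, where the background was 1.22%. Under the fresh-frozen label 5.15% (73 of 1417) were edited with G3BP1 only (background 5.57%) and 0.847% with IgG only (background 0.673%). At E12.5 the shares were 1.22% (background 1.1%) and 0.175% (background 0.147%), and for the fixed embryo 1.27% (background 1.02%) and 1.77% (background 1.79%). There the reverse pattern was thus the more frequent one. Few positions recurred: of 5960 distinct listed sites of these genes, 7 were in all 4 tables and 369 in both brain tables.

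Partners of the same complexes were also looked up. In E16.5 brain, where 9.04% of all genes rose, Bcl7a and Pbrm1 rose of 20 testable BAF and PBAF subunits outside the list, as did Cbx5 and Rbbp4 of 12 NuRD and ChAHP subunits, Rnf2 and Bmi1 of 14 Polycomb genes, Yeats4 of 10 INO80, SRCAP and TIP60 partners, and 0 of 10 COMPASS partners. Pbrm1 is the PBAF bromodomain subunit, Rbbp4 a histone chaperone, and Rnf2 and Bmi1 belong to the same Polycomb ubiquitin ligase. Bcl7c, Pbrm1 and Bcl11b rose among 18 BAF and PBAF subunits in the libraries labelled fresh-frozen (5.65% of all genes), Rbbp4 among 11 NuRD and ChAHP subunits, Rnf2 among 11 Polycomb genes and Trrap among 7 INO80, SRCAP and TIP60 partners. In E12.5 brain (0.269% of all genes) Dpf2 rose of 14 BAF and PBAF subunits, and none of the other partners did. No partner was called in the fixed embryo.

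No transcript level of the 35 genes passed the test between antibodies. TPM values, which are per transcript length and per library total, were compared by limma on log2(TPM + 1). Called genes of the list for G3BP1 over IgG numbered 0 in every table, with a background of 0.0% in 3 tables and 0.0108% at E16.5. Unadjusted p under 0.05 was reached by 7 of 34 in the fixed embryo (2085 of 18292 genes), 5 of 35 under the fresh-frozen label (2745 of 22298), 3 of 35 at E12.5 (2452 of 18010) and 1 of 35 at E16.5 (1841 of 18564). The median log2 difference was 0.00 at E16.5. For the fixed embryo 33 of 34 differences were negative, with a median of -0.21 against -0.12 over all genes, the largest being Arid1a at -0.41 (adjusted p = 0.314, limma).

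Transcript levels between E12.5 and E16.5 brain moved both ways: 10 of the 35 genes rose and 10 fell, where 32.3% and 17.7% of 20162 genes did so. The log2 differences below are of log2(TPM + 1), which understates the change of low genes. The 2 tables were deposited separately, and TPM was rescaled over their 34555 shared genes before the test. The median difference was 0.05 for the list and 0.17 for all genes. Centring on the median of expressed genes brought the median of all genes to 0.02, gave 5425 genes higher and 4606 lower in place of 6516 and 3573, and gave 8 higher and 12 lower in the list, whose median turned to -0.10. Every gene given in full below kept its direction and its call under that centring. In bulk tissue, fewer cells of a type and less RNA per cell cannot be told apart.

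The largest rises were those of Chd5 and Smarca2. Chd5, known as the neuronal NuRD ATPase, was at 12.45 and 9.58 TPM in E12.5 IgG and 4.34 and 3.24 TPM in E12.5 G3BP1 libraries, and at 146, 135, 111 and 124 TPM at E16.5, a log2 difference of 4.10 ± 0.22 (adjusted p = 2.46e-06, limma). Smarca2 was at 12.2 to 16.9 TPM at E12.5 and 57.7 to 63.7 TPM at E16.5 (2.08 ± 0.13, adjusted p = 4.02e-06). Neither gene overlapped between stages. Smarca1 was at 9.83 to 19.7 TPM and then 27.8 to 33.6 TPM (1.15 ± 0.20, adjusted p = 0.00137), and Chd3, another NuRD ATPase, at 153 to 181 TPM and then 332 to 335 TPM (1.02 ± 0.08, adjusted p = 1.24e-05).

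Chd9 and Atrx rose less, by 0.72 ± 0.18 (adjusted p = 0.00845, limma) and 0.66 ± 0.12 (adjusted p = 0.00178). Chd9, of the Chd7 branch, went from 6.18 ± 1.33 to 10.7 ± 0.704 TPM (SD, n = 4) and Atrx from 20.8 ± 3.91 to 33.2 ± 1.72 TPM. Kmt2c, Crebbp, Adnp and Kmt2e also rose, by 0.54, 0.53, 0.46 and 0.35. Of these, Kmt2c and Kmt2e were not called after centring. In IgG libraries alone, which are 2 a stage, 4 of the list rose and 6 fell, and Chd9 (adjusted p = 0.172, limma) and Atrx (adjusted p = 0.0529) were not called.

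Chd7 and Chd4 fell the most. Chd7 was at 74.2, 73.5, 85.9 and 68.2 TPM at E12.5 and at 19.9, 19.4, 20.3 and 19.7 TPM at E16.5, a log2 difference of -1.87 ± 0.10 (adjusted p = 2.63e-06, limma). Chd4, the main NuRD ATPase of dividing cells, was at 395 to 447 TPM and then 184 to 195 TPM (-1.14 ± 0.06, adjusted p = 2.86e-06). Neither overlapped between stages. Chd1 fell by 0.63 ± 0.12 (adjusted p = 0.00268), the ISWI ATPase Smarca5 by 0.50 ± 0.12 (adjusted p = 0.00735) and Chd8, a regulator associated with autism, by 0.41 ± 0.10 (adjusted p = 0.00918). Kmt2b fell by 0.42 ± 0.13 (adjusted p = 0.0245) and lost its call without a filter on low values (adjusted p = 0.0736) and without E12.5 IgG replicate 1, E12.5 G3BP1 replicate 2, E16.5 IgG replicate 2 or E16.5 G3BP1 replicate 1 (adjusted p = 0.0527 to 0.0755). Without E16.5 IgG replicate 2, 6 of the list fell in place of 10. In IgG libraries alone Kmt2b and Chd8 were not called either. Smarca4, Bptf, Arid1a and Smarcc1 fell by 0.38, 0.36, 0.34 and 0.29.

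The remaining 15 genes did not pass, with log2 differences between -0.27 (Srcap) and 0.34 (Arid1b). Levels differed widely in the list. At E16.5 Smarcc2 was the most abundant, at 433 ± 2.67 TPM (SD, n = 4), followed by Smarca4 at 377 ± 2.96 and Chd3 at 333 ± 1.37, and the lowest were Ash1l at 12.6 ± 1.12 and Chd9 at 10.7 ± 0.704 TPM. At E12.5 Smarca4 led at 495 ± 55.2 TPM, then Chd4 at 422 ± 21.4 and Smarcc2 at 394 ± 34.9, which lie within or near each other's spread. The sum over the 35 genes was much the same, 2492 to 2722 TPM at E12.5 and 2510 to 2577 TPM at E16.5.

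**Figure D4:**
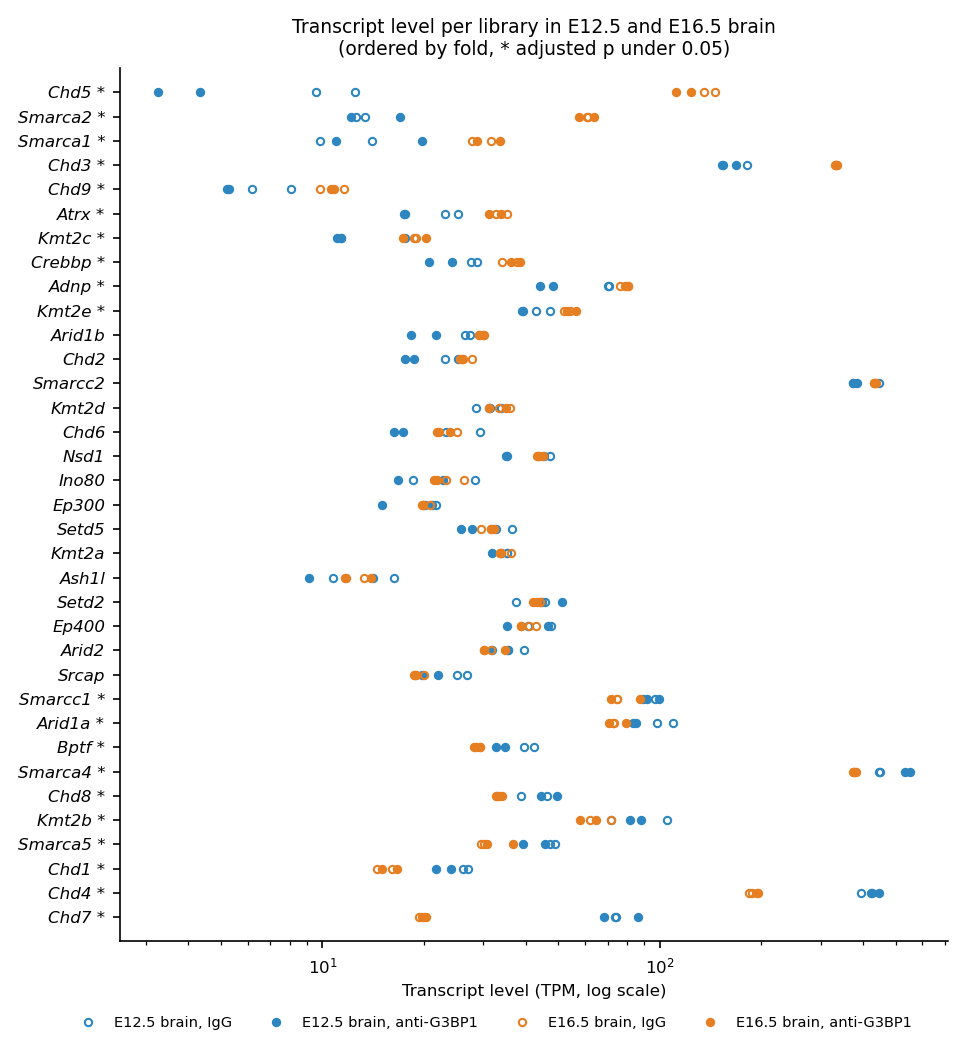
TPM of each of the 35 genes in the 4 libraries of E12.5 and the 4 of E16.5 brain on a log axis, ordered by fold, with an asterisk at genes called. Chd5 lies at 3.24 to 12.45 TPM at E12.5 and 111 to 146 TPM at E16.5, and Chd7 at 68.2 to 85.9 and 19.4 to 20.3 TPM.

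Cell type marker sums moved along with the stage. Summed neuron markers went from 2402 to 2880 TPM at E12.5 to 3906 to 3992 TPM at E16.5, and summed progenitor markers from 2477 to 2765 TPM to 621 to 757 TPM. Tubb3 made up most of the neuron sum, and its mean rose 1.47-fold. Rbfox3, Snap25, Gria2 and Syt1 rose 2.07-, 3.54-, 4.75- and 5.13-fold. Among progenitor markers, Nes, Hes5, Pax6 and Vim changed 0.173-, 0.139-, 0.294- and 0.228-fold, while Sox2 (0.790-fold) overlapped between stages. Erythroid markers went from 8761 to 12341 TPM to 669 to 715 TPM. Among them the means of Hba-x, Hbb-y and Hbb-bh1 went from 3387, 5136 and 895 TPM to 8.02, 15.2 and 0.286 TPM. Those of Hba-a1 and Hba-a2 went from 810 and 105 TPM to 578 and 93.1 TPM, and Hba-a2 overlapped between stages. Microglial markers summed to 15.3 to 32.1 and 36.8 to 53.0 TPM, endothelial markers to 34.5 to 43.1 and 51.9 to 56.9 TPM. Of the microglial markers C1qa rose 3.11-fold, while Cx3cr1 (0.759-fold) and Csf1r (1.47-fold) overlapped between stages. Afp and Hoxc8 were at 0 in every E12.5 library. The part of these markers in the stage differences was not tested, except that rescaling without mitochondrial and globin genes left 10 genes higher and 10 lower.

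The TPM shares of related genes differed between stages, with no test of the shares. Among the NuRD ATPases, Chd4 made up 71.1% of the summed TPM of Chd3, Chd4 and Chd5 at E12.5 and 29.2% at E16.5, while Chd3 went from 27.6% to 51.1% and Chd5 from 1.2% to 19.7%. Smarca2 went from 2.7% to 13.9% of Smarca2 and Smarca4, so that Smarca4 remained the main BAF ATPase transcript. The ISWI ATPase Smarca1 went from 22.9% to 48.9% of Smarca1 and Smarca5. Arid1b went from 19.9% to 28.6% of Arid1a and Arid1b, and Smarcc1 from 19.4% to 15.1% of Smarcc1 and Smarcc2.

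Pairs of BAF subunits outside the list were compared in the same way, with no test of the shares. Actl6b, the neuronal actin-like subunit, made up 57.0% of Actl6a and Actl6b at E12.5 and 87.4% at E16.5, and Ss18l1 (CREST) 65.3% and 87.5% of Ss18 and Ss18l1. Dpf1 went from 57.7% to 70.5% of Dpf1, Dpf3 and Phf10, with Phf10 at 39.9% and 28.1% and Dpf3, also known as a neuronal subunit, at 2.38% and 1.34%. For the counts that follow, 32.3% of all genes rose and 17.7% fell with stage by limma. Of 21 BAF and PBAF subunits 7 rose, near that share, led by Bcl11b (3.59), Bcl11a (1.62), Ss18l1 (1.54) and Actl6b (1.24), and 4 fell, also near it, led by Actl6a (-1.12). Of 13 NuRD and ChAHP subunits 0 rose and 6 fell, of 10 COMPASS partners 0 rose and 3 fell, and of 10 INO80, SRCAP and TIP60 partners 0 rose and 2 fell. Polycomb genes moved both ways, with 7 of 14 higher and 5 lower, led by Ring1 (-1.93) and Ezh2 (-1.23).

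**Figure D5:**
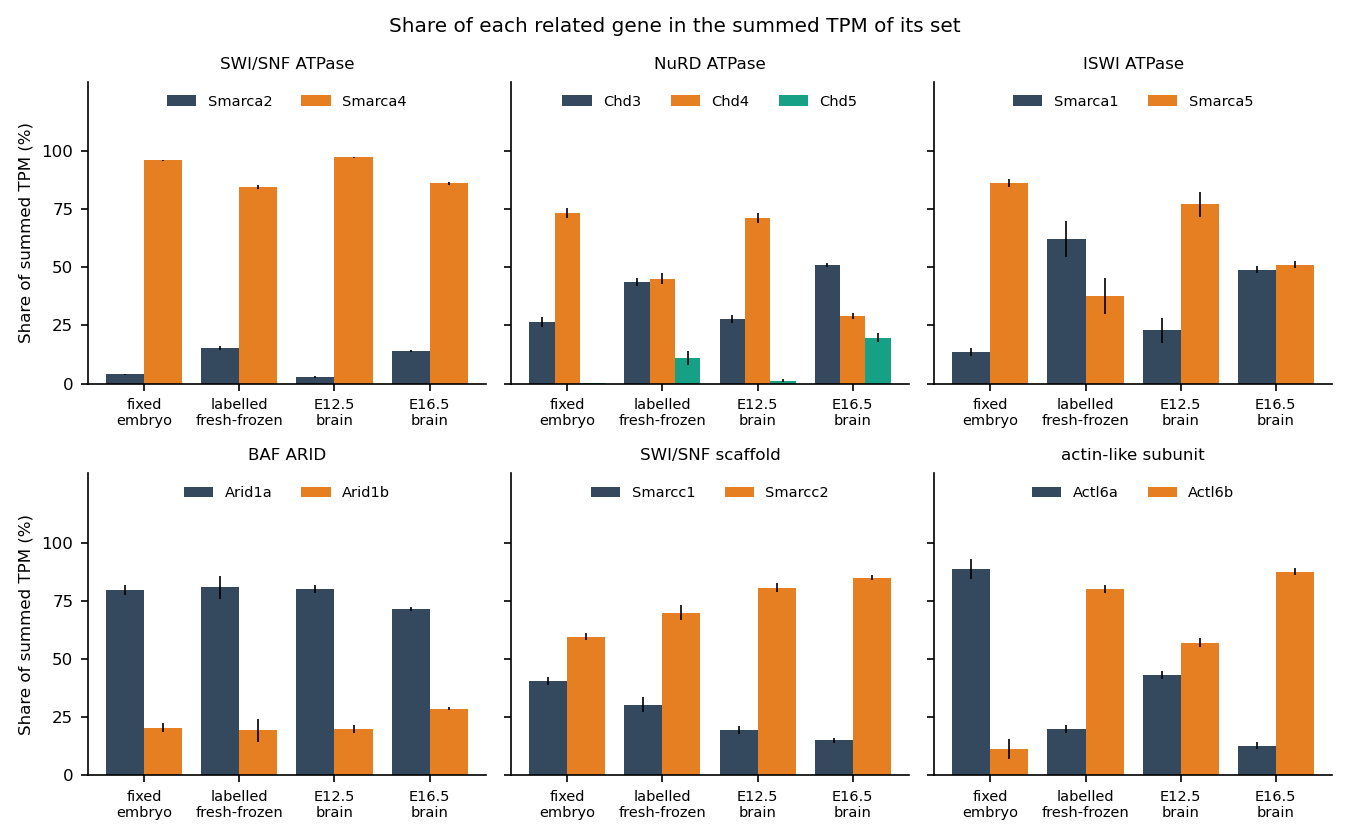
Share of each gene in the summed TPM of its related genes, in percent, as bars for the mean over all libraries of a table with SD (n = 6 for each embryo table, n = 4 for each brain table). Chd4 goes from 71.1% at E12.5 to 29.2% at E16.5 and Actl6b from 57.0% to 87.4%.

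Levels in the 2 embryo tables were set beside these without a test, since each table was scaled on its own. The sum over the 35 genes was 1406 to 1730 TPM in the fixed embryo and 4799 to 6052 TPM in the libraries labelled fresh-frozen. In the fixed embryo Chd5 had a level of 0.516 ± 0.242 TPM, and under the fresh-frozen label 93.1 ± 33.8 TPM (SD, n = 6), and only this gene was below 1 TPM in the fixed embryo libraries. Kmt2a was at 15.6 ± 2.69 and 248 ± 31.3 TPM and Kmt2e at 27.6 ± 4.11 and 354 ± 27.4 TPM. Smarca5, at 44.3 ± 5.70 and 43.8 ± 13.4 TPM, did not differ beyond its spread. Chd4 made up 73.3% of the 3 NuRD ATPases in the fixed embryo and 45.1% in the libraries labelled fresh-frozen, and Actl6b 11.2% and 80.2% of its pair.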

How the data were processed

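Editing was measured as edited and covering read counts per site, which the authors deposited as 1 table for each of 4 experiments, and transcript level as TPM, which the authors deposited per gene. Among the tools in the submitters' processing notes are featureCounts 2.0.1, GATK 4.5.0.0, HISAT2 2.2.1 and BWA 0.7.17, with the mouse build mm10 (GRCm38). How sites were filtered before deposit is not given in the sources used here, so shares hold over listed sites only. Reads were summed per gene over sites covered at least 10 times in each library of a table. Genes reaching 50 summed reads in each library were tested by a quasi-binomial logistic model (0.25 edited and 0.25 unedited reads added per library, dispersion moderated with limma's squeezeVar and held at 1 or more, two-sided F test). TPM was tested with limma 3.58.1 (trend) on log2(TPM + 1) for genes at 1 TPM or more in at least 2 libraries, with antibody as a covariate in the stage comparison. R 4.3.3 was used, and edgeR 4.0.16 ran as an alternative test. Site context came from GENCODE M21, where 6701 of 6703 site lines of the listed genes were placed and all 6701 reference bases matched. The scripts were tested on simulated data. Genes given with full statistics were the called ones, at most the 8 with the smallest p per direction for editing and the 6 largest changes per direction for expression. The 35 genes, the partner and marker lists and these rules were chosen with earlier results of these data known. Wilson intervals are at 95%.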

Additional observations from a re-analysis of the deposited data

Results flagged for a closer look

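Both G3BP1 libraries of the fixed embryo lay below both IgG libraries for 5 genes that moved the opposite way in at least 1 other table. The difference between tables was not tested for any of them, and values are mean edited shares, G3BP1 minus IgG, in percentage points. For Kmt2a the difference was -0.544 in the fixed embryo, 0.153 in the libraries labelled fresh-frozen and 0.203 in E16.5 brain. For Kmt2e it was -0.349 in the fixed embryo, 0.396 in the libraries labelled fresh-frozen and 0.165 in E16.5 brain. At E12.5 Kmt2e was also lower with G3BP1, at means of 0.0531% against 0.0880% with IgG, but the libraries overlapped. For Setd5 it was -0.175 in the fixed embryo, 0.508 in the libraries labelled fresh-frozen, 0.0442 at E12.5 and 0.0953 at E16.5. For Chd2 it was -0.369 in the fixed embryo and 0.409 in E16.5 brain, and for Chd8 -0.213 and 0.0878. The fixed embryo values rest on few reads: Kmt2a had 2 and 2 edited reads with IgG and 0 and 0 with G3BP1. Of all tested genes in the fixed embryo, 12.2% had both G3BP1 libraries below both IgG libraries.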

How the results depend on the processing

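Leaving out 1 library, with the lone library of its group taken to vary like the other group, gave 0 to 2 genes of the list called for G3BP1 over IgG in the libraries labelled fresh-frozen (3 with all libraries), 0 to 2 in E12.5 brain (1), 0 to 4 in E16.5 brain (11), and for E16.5 over E12.5 expression 7 to 12 higher (10) and 6 to 10 lower (10). The 6 came without IgG replicate 2 of E16.5 brain. On C-to-T sites alone the counts were 0, 0 and 1, in the order labelled fresh-frozen, E12.5 and E16.5, and Smarca2 turned to -0.14 in E16.5 brain (adjusted p = 0.965, quasi-binomial). Against the median change of all genes they were 0, 0 and 0, by limma 0, 0 and 0, and by a Wald test 1, 0 and 8. E12.5 brain gave 0 without the most edited site of each gene, and 0 when positions edited in at least 50% of reads were left out. For IgG over untreated with the fresh-frozen label (0), a minimum of 200 reads gave 3, A-to-G sites alone 1 and edgeR 2. Stage expression in IgG libraries alone gave 4 higher and 6 lower.

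Replicate numbers were not taken as pairs, since same-numbered libraries showed little shared deviation, with correlations of -0.07 to 0.03 across genes. This cannot show whether they share an animal or a batch. With the replicate block the calls were 0 in the libraries labelled fresh-frozen, 1 at E12.5 and 10 at E16.5, and 10 higher and 9 lower for stage expression.

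Over all genes, calls with the fresh-frozen label were 443, and 91 with the block, 112 by the Wald test, 1 against the median, 0 by limma, 0 on C-to-T sites, 735 at a site minimum of 5 reads and 734 at a gene minimum of 200 reads. In E16.5 brain they were 1061, and 72 on C-to-T sites, 11 against the median and 0 by limma. In E12.5 brain they were 15, with 0 to 28 under the other settings, and 47 without G3BP1 replicate 1, 76 without G3BP1 replicate 2 and 0 without either IgG library. IgG over untreated with the fresh-frozen label gave 10, with 0 to 143. Stage expression in IgG libraries alone gave 3907 higher and 2205 lower. Of single genes given in full, the other settings left 141 editing values called in the same direction, 67 not called and 1 reversed, and 79 expression values called and 5 not. With 1 library left out, 11 editing values stayed called and 49 did not, against 92 and 4 for expression. The fixed embryo table has 395 kept sites of these genes, the fewest of the 4 tables. The causes of these changes were not tested.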

Other observations

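Some high values in E12.5 brain came from single positions in 1 library. A cytidine in Nsd1 at chr13:55313848 was edited in 29 of 54 reads (53.7%) in G3BP1 replicate 2 only, and a position in Smarca2 at chr19:26777973 in 5 of 10 reads in the same library only.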
